A study of Mus musculus with 12 samples.

Results

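The unfolded protein response and the integrated stress response are described here through 34 genes, chosen by symbol from the 55216 genes of a count table. They are 4 genes of ER stress sensing (the sensors Ern1, Eif2ak3 and Atf6, and Xbp1), 18 genes of the branch that runs through ATF4 and CHOP (6 transcription factors, 5 effectors and 7 genes of amino acid and one-carbon metabolism), and 12 genes of the chaperone branch of the endoplasmic reticulum (ER) (10 chaperones and folding factors, and 2 genes of ER-associated degradation, ERAD). They were picked by role and not by a threshold on a measured value, though with earlier results of these data known. A filter on low counts kept 33 of the 34. Vldlr, a lipoprotein receptor that ATF4 can induce, had 0 to 0.171 CPM (counts relative to the TMM-scaled library size) in the 12 libraries and was not tested.

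When unfolded protein builds up in the ER, the sensor PERK phosphorylates eIF2α, which slows translation in general and favours that of the transcription factor ATF4. The same step is reached from other kinases that sense amino acid shortage, viral RNA or heme loss, and the shared output is called the integrated stress response. ATF4 switches on genes for amino acid import and synthesis, and CHOP (the product of Ddit3) is a later factor linked to cell death. The other sensors, IRE1α (Ern1) and ATF6, act through the spliced form of XBP1 and through the cleaved form of ATF6, and these raise ER chaperones and ERAD genes. ATF4, XBP1 and ATF6 are controlled largely at translation, splicing and cleavage, so the level of their mRNA is not a reading of their activity.

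The cells were Myc-CaP, an established line from a prostate cancer of a male FVB/NJ mouse that overexpresses Myc. Before RNA was taken, they had been kept for 48 h without treatment (Ctrl), with 2 μM Oxali (oxaliplatin, a DNA-damaging platinum drug that can make dying cells immunogenic), with 200 or 2000 pg interferon γ (IFNγ; groups IFN200 and IFN2000), or with Oxali plus either amount (Combo200 and Combo2000). The labels state IFNγ in pg without a volume. Each of the 6 groups had 2 libraries of poly(A) RNA, and all of them came from the same cell line. Nothing in the labels says that the libraries of a group were separate cultures, so p-values measure the spread between these libraries, which may be technical.

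Groups were set by title, because in the 6 libraries that received 1 agent the label for the agent contradicts the title. The choice was checked on response genes. Cdkn1a, a p53 target, had 48.1 to 51.0 CPM in the 2 libraries titled Oxali and 24.0 to 30.3 CPM in those titled Ctrl, IFN200 or IFN2000. Over 10 p53 targets the mean log2 ratio to Ctrl was 0.41 and 0.39 in Oxali and -0.034 to 0.056 in IFN200 and IFN2000, though some, such as Bax, fell with Oxali. Over 10 genes induced by IFNγ it was 1.31 and 1.15 in IFN200, 3.70 and 3.63 in IFN2000 and 1.68 and 1.74 in Oxali. This mean was above Ctrl in both IFN200 and Oxali, so it does not by itself show which of them received IFNγ. Single genes differed between them in either direction. Irf1 had 47.1 and 42.9 CPM in IFN200 and 96.3 and 94.1 CPM in Oxali. Irgm1 had 65.0 and 63.4 CPM in IFN200 and 55.4 and 54.1 CPM in Oxali. Library totals were 18749975 to 25931516 counts, so that 3 counts, the limit a count of 0 allows for counting error, equal 0.111 to 0.167 CPM. The luminal genes Hoxb13 (29.2 to 45.1 CPM) and Krt8 (18.6 to 23.9 CPM) were detected in every library, but Epcam was at 0 in all of them. Markers of T cells stood out in IFN2000 replicate 2, where 8 of 9 were above 0 with a summed level of 11 CPM, against 0.353 to 2.78 CPM elsewhere, and Ifng itself was at 5.01 CPM. Heart muscle markers stood out in IFN200 replicate 1, with 8 of 8 above 0 and a summed level of 7.81 CPM, against 0.835 to 5.94 CPM elsewhere. The calls that were lost without either library are named beside the results.

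Oxali changed most of these genes, and lowered more of them than it raised. Of the 33 tested, 6 were called higher and 24 lower in Oxali than in Ctrl (edgeR quasi-likelihood test, Benjamini-Hochberg adjusted p under 0.05), while 34.8% of all genes tested were called higher and 32.8% lower. The share called higher was therefore below that of all genes and the share called lower was above it. In the ATF4 and CHOP branch 4 of 17 genes were higher and 12 lower, with a median log2 fold change of -0.62, and in the ER chaperone branch 1 of 12 was higher and 9 lower, with a median of -0.58. The median over all genes was 0.02. In 22 of the 34 genes, all 6 libraries with Oxali lay below all 6 without it, and in 4 (Ern1, Atf3, Ddit3 and Ppp1r15a) all 6 lay above. How many of all genes had such an order was not counted, so these counts cannot be called particular to the 34. Of the 30 calls in Oxali against Ctrl 28 held in all 19 alternative settings.

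Some markers of other cell types were also higher with Oxali than in Ctrl, at low levels. In the 6 libraries with Oxali the summed level was 3.06 to 5.94 CPM for 8 heart muscle markers, 2.00 to 2.78 CPM for 9 T cell markers, 1.53 to 2.27 CPM for 6 myeloid markers and 20.9 to 25.6 CPM for 6 fibroblast markers. In Ctrl the same sums were 0.835 and 1.27, 0.556 and 0.811, 0.556 and 1.27, and 17.4 and 13.4 CPM. The highest myeloid sum was in a library without Oxali, IFN2000 replicate 2, at 3.68 CPM, of which Ptprc made up 2.74 CPM. In the other libraries with IFNγ alone that sum was 0.530 to 1.12 CPM. The heart sum with Oxali was mostly Tnnt2 and the fibroblast sum mostly Pdgfra, while Cd8a, Adgre1, Itgam and Lum were at 0 in all libraries. The T cell sum with Oxali was mostly Lck (1.15 to 1.72 CPM), and Cd3d was at 0 there. With Oxali and in Ctrl, Cd68 was the largest part of the myeloid sum, at 0.954 to 1.20 CPM with Oxali and 0.556 and 1.22 CPM in Ctrl. Csf1r had 0.309 to 0.829 CPM with Oxali and 0 without. The part of these genes in the results was not tested, and in bulk RNA more cells of a type and more RNA per cell cannot be told apart.

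**Figure D1:**
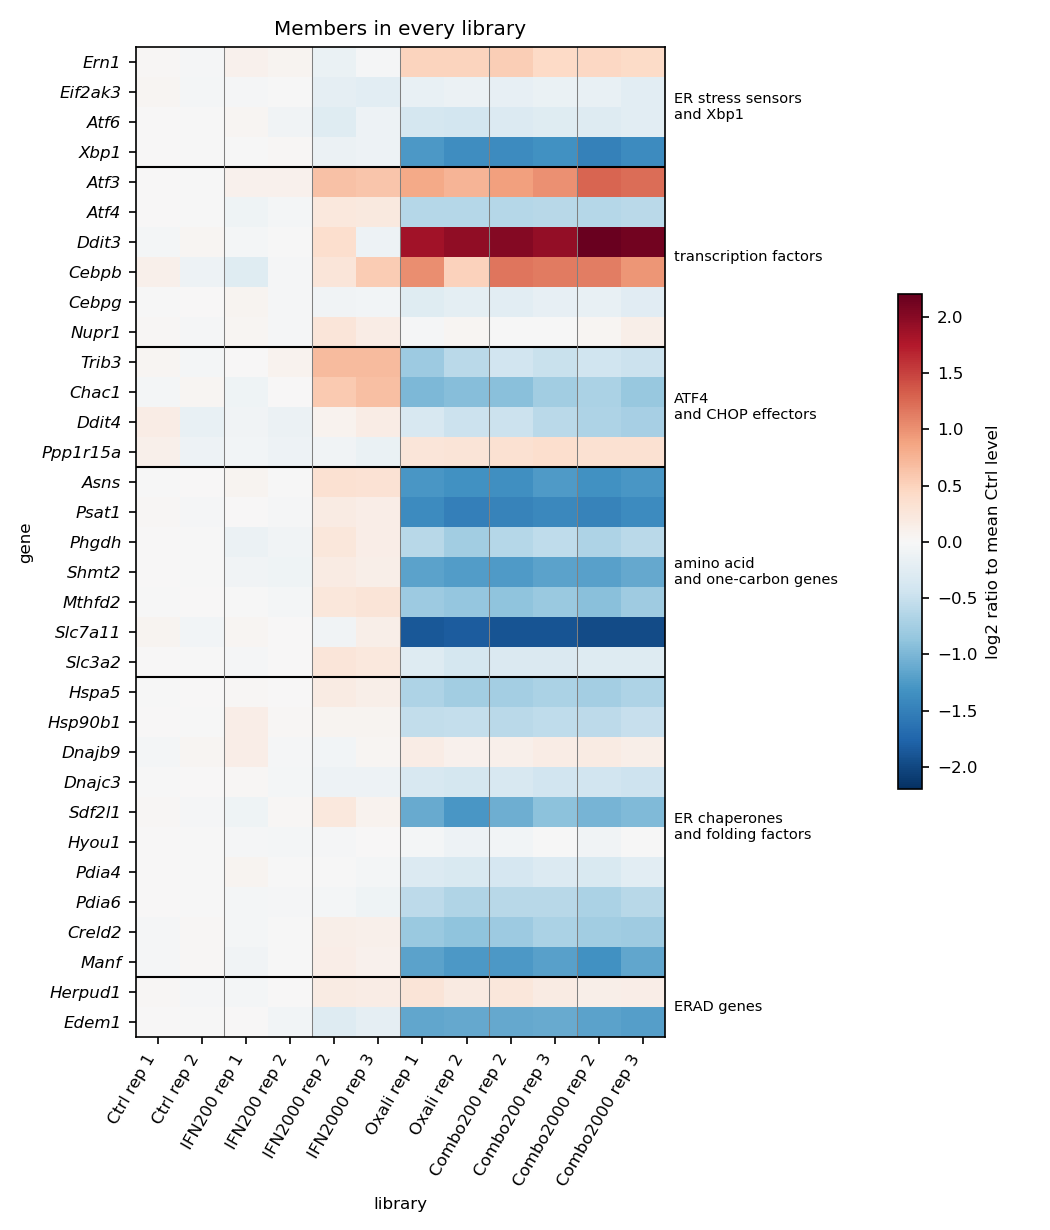
Level of the 33 tested genes in each of the 12 libraries (columns) as the log2 ratio to the mean Ctrl level (colour scale, red above and blue below Ctrl), with genes (rows) grouped by role. The 6 libraries with Oxali are blue over most rows, Ddit3, Atf3, Cebpb and Ern1 are red there, and the 2 IFN2000 libraries are pale red at Trib3, Chac1, Atf3 and Asns.

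**Figure D2:**
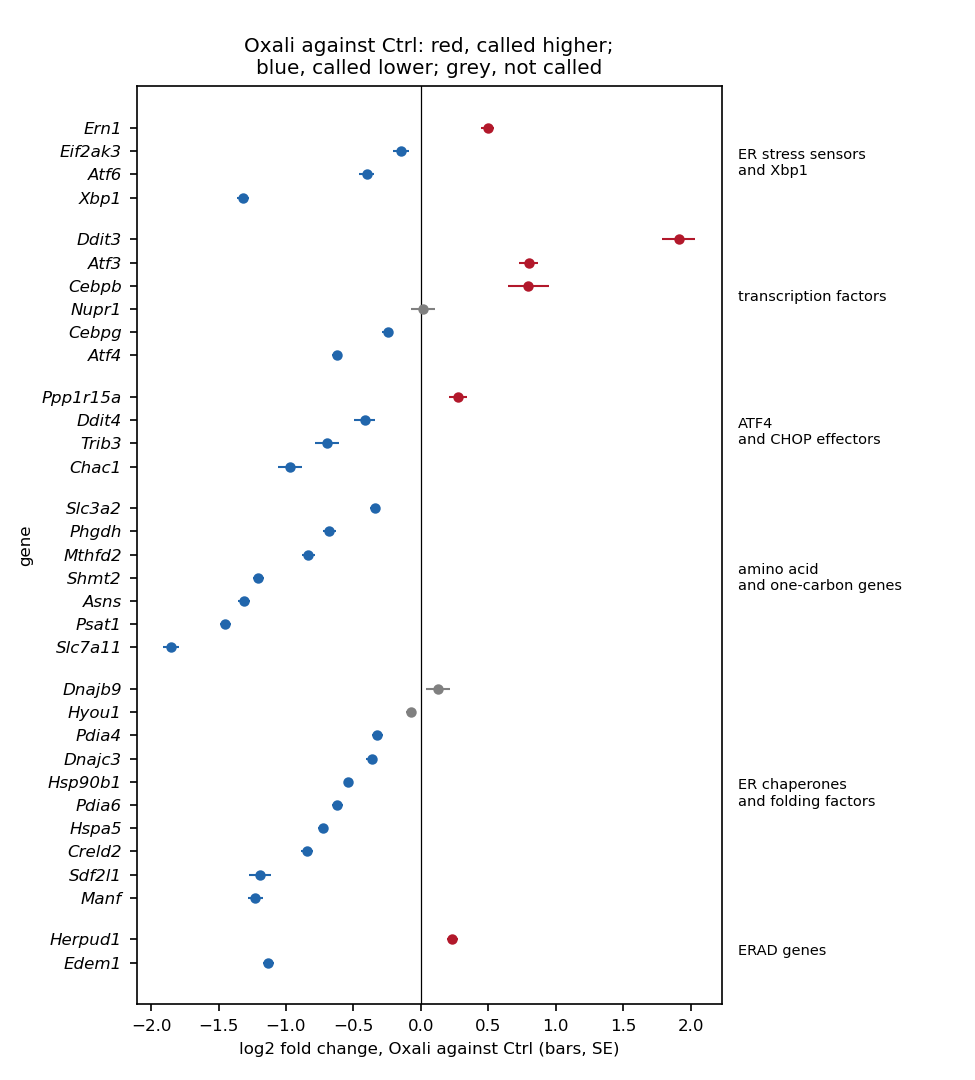
Log2 fold change in Oxali against Ctrl (horizontal axis; points are fitted values, bars are SE, 2 libraries per group) of the 33 tested genes, grouped by role. Values run from -1.85 for Slc7a11 to 1.91 for Ddit3, and the 7 amino acid and one-carbon genes all lie to the left of 0.

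Among the sensors, the mRNA of IRE1α rose while that of XBP1 fell. Ern1, the kinase and nuclease that splices Xbp1, had 95.5 and 92.9 CPM in the 2 Ctrl libraries and 132 and 133 CPM in Oxali. This is a difference of log2 fold change 0.49 ± 0.046 SE, adjusted p = 1.07e-08. Xbp1, the substrate of that splicing, had 137 and 136 CPM in Ctrl and 56.4 and 52.8 CPM in Oxali. The Xbp1 difference was log2 fold change -1.32 ± 0.045 SE, adjusted p = 4.12e-15, a 2.49-fold lower level, and the groups were far apart. Gene counts do not separate spliced from unspliced Xbp1. Atf6, an ER membrane protein that is cleaved under stress to release a transcription factor, had 86.2 and 84.6 CPM in Ctrl and 65.0 and 64.3 CPM in Oxali (log2 fold change -0.40 ± 0.054 SE, adjusted p = 1.62e-06). Eif2ak3, which encodes PERK, had 27.1 and 25.8 against 23.6 and 24.2 CPM, and its call (log2 fold change -0.15 ± 0.062 SE, adjusted p = 0.0434) was lost in 6 of 7 other ways of fitting, with adjusted p from 0.0584 to 0.196, and without Ctrl replicate 1 or either Oxali library, with adjusted p from 0.0554 to 0.189.

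The transcription factors did not move as a block. Ddit3 had 4.56 and 4.86 CPM in Ctrl and 17.1 and 18.4 CPM in Oxali, with no overlap between any library with Oxali and any library without. Its rise of 3.76-fold (log2 fold change 1.91 ± 0.12 SE, adjusted p = 3.83e-11) was the largest among the 33 genes tested. Of the exon length of Ddit3, 6.13% overlaps another protein-coding entry with the same symbol on the same strand. How reads in that overlap were counted was not tested. The exons of Ddit3 also share 68 bases with those of Mars on the opposite strand, 3.97% of its exon length. The strand setting of the counting is not given in the sources used here. Mars itself, a tRNA synthetase gene, was lower in Oxali by 0.90 on the log2 scale. Atf3, a stress-inducible factor of the same family as ATF4, had 14.3 and 14 CPM in Ctrl and 25.3 and 23.9 CPM in Oxali (log2 fold change 0.80 ± 0.074 SE, adjusted p = 9.37e-09).

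Atf4 itself was lower with Oxali. It had 393 and 392 CPM in Ctrl and 255 and 255 CPM in Oxali, a difference of log2 fold change -0.62 ± 0.037 SE, adjusted p = 1.16e-11. The 6 libraries with Oxali held within 253 to 261 CPM and the 6 without ran from 367 to 460 CPM, so the groups did not overlap. Cebpb, a partner of ATF4 on DNA, had 9.51 and 8.11 CPM in Ctrl and 18.0 and 12.5 CPM in Oxali (log2 fold change 0.80 ± 0.15 SE, adjusted p = 9.9e-05). Without Oxali replicate 1 the value was 0.50. The 2 Oxali libraries of Cebpb were far apart, the lower of them under the higher IFN2000 library at 12.9 CPM, and 20.7% of its exon length overlaps Tmem189 on the opposite strand. Cebpg, another partner, fell from 144 and 146 to 120.1 and 124 CPM (log2 fold change -0.25 ± 0.043 SE, adjusted p = 4.62e-05). Nupr1, a small chromatin protein induced in stressed cells, had 11.8 and 11.3 CPM in Ctrl and 11.4 and 11.9 CPM in Oxali, a log2 fold change of 0.01 ± 0.09 that was not called.

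Per length of exon, the order of levels in Ctrl among the transcription factors was Atf4 at 166 CPM per kb, Cebpg at 25.8, Atf3 at 6.57, Cebpb at 5.86, Nupr1 at 4.60 and Ddit3 at 2.75 CPM per kb. In Oxali Atf4 was still far above the others at 108 CPM per kb, while Ddit3 at 10.4, Atf3 at 11.4 and Cebpb at 10.1 CPM per kb had come to lie close together.

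**Figure D3:**
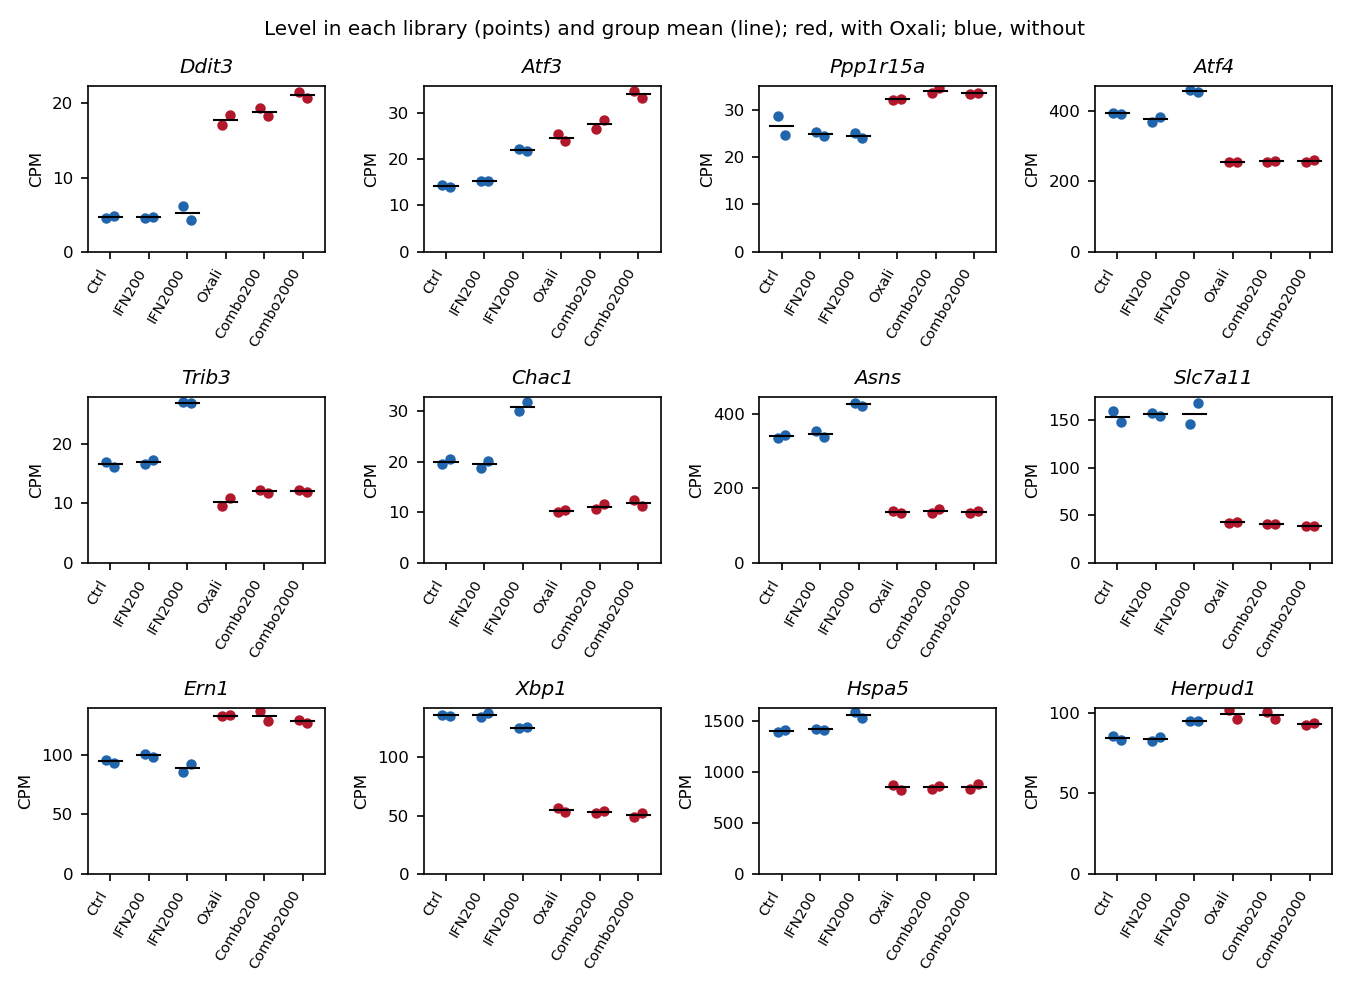
CPM (vertical axes, from 0) in each of the 12 libraries (points) with the mean of each group of 2 (lines) for 12 of the genes; red points are libraries with Oxali. Ddit3, Atf3, Ppp1r15a and Ern1 lie higher in all red points, Atf4, Trib3, Chac1, Asns, Slc7a11, Xbp1 and Hspa5 lie lower, and Herpud1 overlaps.

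Among the 4 effectors tested, 1 was called higher and 3 lower, against 34.8% and 32.8% of all genes tested. Ppp1r15a (GADD34), which brings a phosphatase to eIF2α and so ends the translation block, had 28.6 and 24.6 CPM in Ctrl and 32.1 and 32.3 CPM in Oxali. The difference was log2 fold change 0.28 ± 0.066 SE, adjusted p = 0.00107, and it missed the threshold without Ctrl replicate 2, at a log2 fold change of 0.17 and an adjusted p of 0.0514. With a correction for gene length and GC content the value was 0.16 and still called. Trib3, a pseudokinase induced by ATF4 and CHOP, had 17.0 and 16.1 CPM in Ctrl and 9.49 and 10.9 CPM in Oxali (log2 fold change -0.69 ± 0.087 SE, adjusted p = 7.61e-07). Chac1, which breaks down glutathione, had 19.6 and 20.6 CPM in Ctrl and 10.0 and 10.4 CPM in Oxali (log2 fold change -0.97 ± 0.088 SE, adjusted p = 6.77e-09). Thus Trib3 and Chac1, both placed downstream of CHOP in the usual scheme, were lower in the libraries in which Ddit3 was higher. Ddit4 (REDD1), an inhibitor of mTORC1, had 82.7 and 65.3 CPM in Ctrl and 57.7 and 52.9 CPM in Oxali (log2 fold change -0.42 ± 0.078 SE, adjusted p = 9.99e-05), and a value of -0.24 that was still called without Ctrl replicate 1.

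The genes of amino acid and one-carbon metabolism fell together, with 7 of 7 called lower and a median log2 fold change of -1.20. Over all genes tested 32.8% were called lower. Slc7a11, the cystine carrier of the exchanger xCT, fell the most, from 159 and 147 CPM to 42.0 and 42.9 CPM, 3.61-fold (log2 fold change -1.85 ± 0.059 SE, adjusted p = 1.69e-15). Psat1, an enzyme of serine synthesis, had 1005 and 976 CPM in Ctrl and 377 and 349 CPM in Oxali (log2 fold change -1.45 ± 0.041 SE, adjusted p = 2.68e-16). Asns, asparagine synthetase and a standard readout of ATF4, had 335 and 343 CPM in Ctrl and 139 and 134 CPM in Oxali (log2 fold change -1.31 ± 0.043 SE, adjusted p = 2.51e-15). For each of these 3 genes every library with Oxali was below every library without, an order that was not counted over all genes. The mitochondrial one-carbon enzymes Shmt2 and Mthfd2 had log2 fold changes of -1.20 and -0.83, and Phgdh, the first enzyme of serine synthesis, had -0.68. Slc3a2, the heavy chain that xCT and other carriers share, moved least, from 457 and 451 to 373 and 346 CPM (log2 fold change -0.34 ± 0.038 SE, adjusted p = 1.52e-07). Summed over the 7 genes and per kb, the level was 860.1 and 854 CPM per kb in Ctrl and 446 and 415 CPM per kb in Oxali.

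Across all the genes chosen here, promoters hold the C/EBP-ATF response element (CARE) more often than promoters at large. CARE is the DNA word that ATF4 and a C/EBP partner bind. The genes were chosen by role, ATF4 targets among them, so this share describes the list and tests nothing. The letters TGATGNAA were searched on both strands of the 300 bases from 250 before to 50 after the start of transcription, as RefSeq gives them on GRCm38.p6. A match was found in 8 of the 31 genes with a promoter in the table (25.8%), against 4.51% of 27025 mouse genes. Of those 8, 2 rose with Oxali (Atf3 and Herpud1) and 4 fell (Trib3, Chac1, Slc7a11 and Asns). Nupr1 was not called and Vldlr was not tested. The genes that hold the word thus did not share a direction with Oxali. Over all genes tested 34.8% were called higher and 32.8% lower, so calls in both directions are not particular to them. The promoters of Slc7a11 and Asns are printed because they belong to the genes that fell among those with a match, and that of Ddit3 because it rose most and has no match in this window. Windows of 40 bases follow for the other genes with a match, in the 5′ to 3′ direction of each gene, with the match in capitals.
Slc7a11 (chr3:50443564-50443863, minus strand): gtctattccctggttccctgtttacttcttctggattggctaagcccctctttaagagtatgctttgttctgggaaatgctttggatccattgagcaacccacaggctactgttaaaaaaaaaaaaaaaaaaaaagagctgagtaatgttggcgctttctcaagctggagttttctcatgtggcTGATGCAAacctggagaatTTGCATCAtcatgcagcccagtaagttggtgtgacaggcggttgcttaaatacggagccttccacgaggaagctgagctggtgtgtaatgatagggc
Asns (chr6:7693160-7693459, minus strand): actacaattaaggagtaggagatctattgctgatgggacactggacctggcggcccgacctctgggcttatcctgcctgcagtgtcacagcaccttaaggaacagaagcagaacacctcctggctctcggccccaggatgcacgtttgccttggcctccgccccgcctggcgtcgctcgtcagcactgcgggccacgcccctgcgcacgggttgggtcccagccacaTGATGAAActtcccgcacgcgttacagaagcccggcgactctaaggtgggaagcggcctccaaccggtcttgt
Ddit3 (chr10:127290543-127290842, plus strand, no capitals as there is no match): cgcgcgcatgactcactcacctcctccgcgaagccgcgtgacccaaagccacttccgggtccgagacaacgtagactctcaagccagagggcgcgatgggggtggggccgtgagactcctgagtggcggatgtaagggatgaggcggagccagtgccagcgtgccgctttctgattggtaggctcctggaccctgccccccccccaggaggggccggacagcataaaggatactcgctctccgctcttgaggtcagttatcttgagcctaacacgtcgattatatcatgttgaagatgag
Atf3 (chr1:191183420-191183459, minus strand): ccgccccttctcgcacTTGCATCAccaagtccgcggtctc
Herpud1 (chr8:94386301-94386340, plus strand): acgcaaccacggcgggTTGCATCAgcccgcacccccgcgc
Trib3 (chr2:152344023-152344062, minus strand): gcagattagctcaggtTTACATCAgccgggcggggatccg
Chac1 (chr2:119351033-119351072, plus strand): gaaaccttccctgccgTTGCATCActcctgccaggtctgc
Vldlr (chr19:27216804-27216843, plus strand): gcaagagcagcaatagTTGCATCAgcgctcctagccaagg
Nupr1 (chr7:126625557-126625596, minus strand): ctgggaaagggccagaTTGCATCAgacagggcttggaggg
A match describes the letters only, and no binding was measured here. Slc7a11 holds 2 matches that start 66 and 47 bases before the start, and Asns holds 1 that starts 23 bases before it.

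In the ER chaperone branch, 8 of 10 chaperones and folding factors were called lower, against 32.8% of all genes tested. Hspa5 (BiP), the Hsp70 of the ER and the usual marker of the unfolded protein response, had 1392 and 1407 CPM in Ctrl and 870.1 and 823 CPM in Oxali. It was 1.65-fold lower (log2 fold change -0.73 ± 0.036 SE, adjusted p = 8.06e-13). Manf, a small secreted ER protein, had 196 and 202 CPM in Ctrl and 87.3 and 82.6 CPM in Oxali (log2 fold change -1.23 ± 0.053 SE, adjusted p = 1.08e-13). This was the largest fall among the folding factors, followed by Sdf2l1, a partner of ER chaperones, at 40.1 and 38.6 CPM in Ctrl and 18.1 and 16.2 CPM in Oxali (log2 fold change -1.19 ± 0.078 SE, adjusted p = 5.88e-11), and by Creld2 at 140.0 and 145 and 81.3 and 77.4 CPM (log2 fold change -0.85 ± 0.045 SE, adjusted p = 2.31e-12). Hsp90b1 (GRP94), the Hsp90 of the ER, had a log2 fold change of -0.54, and the disulfide isomerases Pdia6 and Pdia4 had -0.62 and -0.32. Dnajc3 (p58IPK), a co-chaperone that inhibits PERK, had -0.37. All of these 8 genes had their 6 libraries with Oxali below the 6 without, an order that was not counted over all genes.

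The other 2 folding factors stood out by not being called. Hyou1 (GRP170), which exchanges the nucleotide of BiP, had 635 and 633 CPM in Ctrl and 618 and 587 CPM in Oxali, a log2 fold change of -0.07 ± 0.037. Dnajb9 (ERdj4), a co-chaperone that depends on XBP1, had 11.9 and 12.7 CPM in Ctrl and 13.7 and 13.2 CPM in Oxali, a log2 fold change of 0.13 ± 0.09. In both the libraries with and without Oxali overlapped.

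The 2 ERAD genes went opposite ways. Herpud1, which organises the degradation complex in the ER membrane, had 85.4 and 83.4 CPM in Ctrl and 102 and 96.2 CPM in Oxali (log2 fold change 0.23 ± 0.044 SE, adjusted p = 9.49e-05). Edem1, a lectin that extracts misfolded glycoproteins, had 239.5 and 235 CPM in Ctrl and 108 and 109 CPM in Oxali (log2 fold change -1.13 ± 0.042 SE, adjusted p = 1.12e-14). Over all 12 genes of the branch the summed level per kb was 1486 and 1482 CPM per kb in Ctrl and 1021 and 989 CPM per kb in Oxali.

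Of the 10 genes of this branch with a promoter in the table, 5 hold an ER stress response element (ERSE), the word bound by ATF6 and its partner NF-Y. It was searched on both strands as CCAAT, 9 bases of any kind and CCACG, and does not overlap the CARE matches. None of the 18 genes of the ATF4 and CHOP branch hold it, and among all mouse genes 0.137% do. Both branches were chosen by role, so these shares too describe the lists. All 5 (Hspa5, Hsp90b1, Pdia6, Dnajc3 and Creld2) were called lower with Oxali, against 32.8% of all genes tested. Hyou1, Manf and Atf6 were not in the promoter table. The promoter of Hspa5 is printed as that of the branch's marker gene, with both ends of the element in capitals, and 40-base windows show the same element in the others.
Hspa5 (chr2:34771840-34772139, plus strand): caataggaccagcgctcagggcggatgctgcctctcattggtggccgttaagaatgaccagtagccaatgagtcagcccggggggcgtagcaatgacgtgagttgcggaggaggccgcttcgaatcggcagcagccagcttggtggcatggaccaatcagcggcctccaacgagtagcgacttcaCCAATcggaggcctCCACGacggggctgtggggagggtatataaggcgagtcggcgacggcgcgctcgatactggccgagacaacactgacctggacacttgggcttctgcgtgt
Hsp90b1, first match (chr10:86705628-86705667, minus strand): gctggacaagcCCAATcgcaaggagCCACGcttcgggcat
Hsp90b1, second match (chr10:86705523-86705562, minus strand): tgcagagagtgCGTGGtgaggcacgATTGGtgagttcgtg
Pdia6 (chr12:17266480-17266519, plus strand): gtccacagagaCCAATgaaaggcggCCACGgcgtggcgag
Dnajc3 (chr14:118937816-118937855, plus strand): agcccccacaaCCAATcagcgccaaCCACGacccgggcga
Creld2 (chr15:88819509-88819548, plus strand): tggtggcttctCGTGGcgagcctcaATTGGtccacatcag

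Genes outside the 34 that belong to the same pathways were read from lists taken from general knowledge. Over all genes tested, 34.8% were called higher and 32.8% lower in Oxali than in Ctrl. Of 34 other ATF4 targets tested, 1 was higher and 27 lower in Oxali than in Ctrl, with a median log2 fold change of -0.83. The lower ones included Cth, which makes cysteine (-1.99), Aldh18a1 of proline synthesis (-1.42) and Mthfd1l of one-carbon metabolism (-1.41), and the higher one was Jdp2, a repressor that pairs with other bZIP factors (0.63). Of 45 other XBP1 and ATF6 targets, 6 were higher and 29 lower with a median of -0.26. Txndc11 (-1.25), the translocon-associated Ssr2 (-1.22) and the prolyl isomerase Fkbp11 (-1.21) fell most, while Crebrf (0.78), the ERAD lectin Os9 (0.57) and Wfs1 (0.54) rose most. Among 6 genes of eIF2 kinases and phosphatases 5 were lower, with Ppp1r15b, the constitutive partner of the eIF2α phosphatase (-0.96), the kinase gene Eif2ak1 (-0.61) and the kinase gene Eif2ak4 (-0.51) at the front, and none was higher.

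Other chaperone systems also had more falls than rises, where 34.8% of all genes were called higher and 32.8% lower. Of 15 cytosolic heat shock genes 3 were higher and 10 lower, with a median of -0.31. Hspa8 (-1.19), Hsp90ab1 (-0.91) and Hsph1 (-0.78) fell most, and the small heat shock gene Hspb1 rose by 0.51, Chordc1 by 0.37 and Hspa4l by 0.16. Of 11 mitochondrial chaperones and proteases 9 were lower and none higher, with a median of -0.31, led by Hspe1 (-0.96), Lonp1 (-0.67) and Hspd1 (-0.64).

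**Figure D4:**
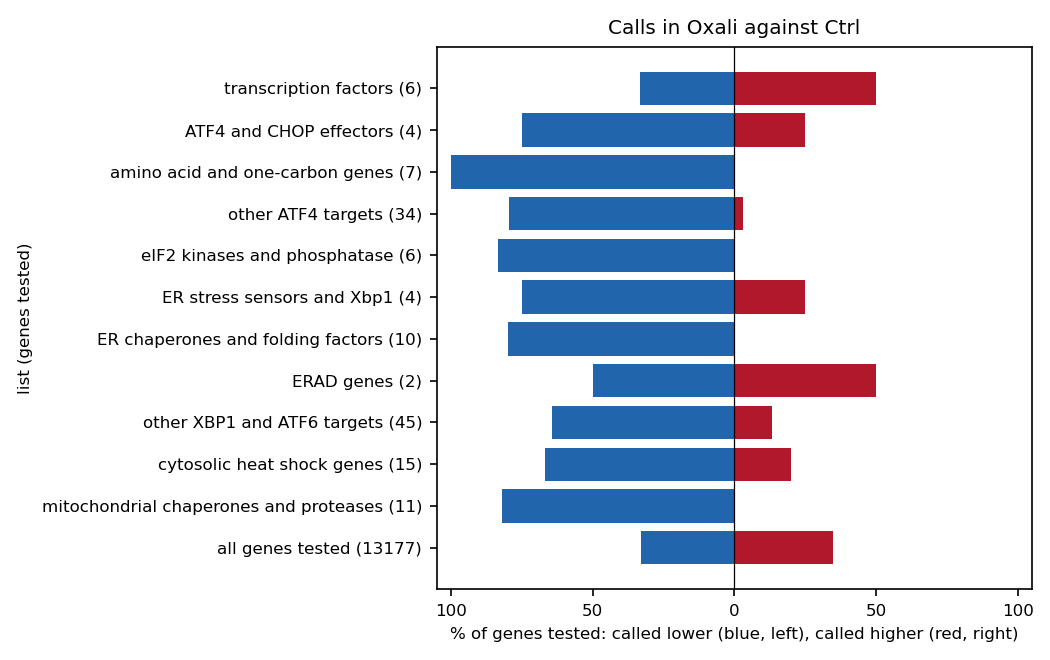
Share of the tested genes of each list (number tested in brackets) that was called lower (bars to the left, blue) or higher (bars to the right, red) in Oxali than in Ctrl, in % (horizontal axis), with all 13177 genes tested at the bottom. Every list has a longer left bar than all genes (32.8%), though the transcription factors only just, and the amino acid and one-carbon genes fill the left side.

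IFNγ alone was then compared with Ctrl. At 200 pg none of the 33 genes was called (edgeR), 2 had an unadjusted p under 0.05, and DESeq2 called 0. Over all genes 0.114% were called in either direction. Leaving out IFN200 replicate 1, which carried the heart muscle markers, or any other library also gave 0 calls among the 33.

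At 2000 pg, IFNγ raised genes of the ATF4 and CHOP branch by small amounts. In all, 12 of the 33 genes were called higher and 3 lower in IFN2000 than in Ctrl, against 8.39% and 8.47% of all genes. The rises lay mostly in the ATF4 and CHOP branch, where 10 of 17 genes were higher and none lower (median log2 fold change 0.22), while in the ER chaperone branch 2 of 12 were higher and 1 lower (median 0.02). Trib3 had 17.0 and 16.1 CPM in Ctrl and 26.9 and 26.7 CPM in IFN2000 (log2 fold change 0.70 ± 0.073 SE, adjusted p = 2.58e-06). Chac1 had 19.6 and 20.6 CPM in Ctrl and 30.1 and 31.8 CPM in IFN2000 (log2 fold change 0.62 ± 0.072 SE, adjusted p = 1.04e-05). Both genes were thus higher with 2000 pg IFNγ and lower with Oxali.

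Atf3 rose with 2000 pg IFNγ as it did with Oxali. Its 2 libraries had 22.2 and 21.7 CPM in IFN2000, a difference from Ctrl of log2 fold change 0.64 ± 0.074 SE, adjusted p = 1.16e-05. Atf4 had 459.6 and 453 CPM in IFN2000 (log2 fold change 0.22 ± 0.036 SE, adjusted p = 0.000433), above every other library. Ddit3 was not called, at 6.12 and 4.33 CPM and a log2 fold change of 0.15 ± 0.15. The 2 libraries of Ddit3 lay on either side of the Ctrl libraries.

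Among the amino acid genes, 6 of 7 rose, by 0.16 to 0.33 on the log2 scale. Asns had 429.5 and 421 CPM in IFN2000 (log2 fold change 0.33 ± 0.041 SE, adjusted p = 2.76e-05), Mthfd2 had 189 and 192 CPM (log2 fold change 0.26 ± 0.045 SE, adjusted p = 0.000541) and Slc3a2 had 544 and 535 CPM (log2 fold change 0.25 ± 0.038 SE, adjusted p = 0.000196). Slc7a11, the gene that fell most with Oxali, was the one not called, at 146 and 168 CPM. Of the 8 genes with a CARE match, 5 (Atf3, Chac1, Trib3, Asns and Herpud1) were higher in IFN2000 and none lower, and Slc7a11 and Nupr1 were not called. Of the 5 genes with an ERSE match 1 (Hspa5) was higher and none lower. Of 34 other ATF4 targets 21 were higher and 2 lower (median 0.17), and of 45 other XBP1 and ATF6 targets 1 was higher and 6 lower (median -0.02). Over all genes 8.39% were higher and 8.47% lower in IFN2000.

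In the ER chaperone branch Hspa5 had 1589 and 1525 CPM (log2 fold change 0.15 ± 0.035 SE, adjusted p = 0.00598) and Herpud1 had 95.2 and 94.7 CPM (log2 fold change 0.17 ± 0.044 SE, adjusted p = 0.0112). Edem1 fell to 196 and 207 CPM (log2 fold change -0.24 ± 0.04 SE, adjusted p = 0.0005). The sensors Eif2ak3, at 23.1 and 22.6 CPM, and Atf6, at 70.9 and 79.5 CPM, were also called lower, by 0.21 and 0.18 on the log2 scale.

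These IFN2000 changes are small, and 1 library bears on some of them. The T cell markers named above were in IFN2000 replicate 2, and without it 11 genes were called, with a median of 0.18 in the ATF4 and CHOP branch. The calls lost without that library were those of Atf6 (log2 fold change -0.10, adjusted p = 0.323), Eif2ak3 (-0.22, adjusted p = 0.0991), Herpud1 (0.17, adjusted p = 0.0507), Phgdh (0.16, adjusted p = 0.0735) and Shmt2 (0.13, adjusted p = 0.0744). Without Ctrl replicate 1 or Ctrl replicate 2 the count was 10, and without IFN2000 replicate 3 it was 17. The calls of Trib3, Atf3, Chac1, Asns, Mthfd2, Slc3a2, Atf4 and Edem1 held in all 19 alternative settings, and those of Eif2ak3, Atf6, Psat1, Phgdh, Shmt2, Hspa5 and Herpud1 were lost in at least 1. The log2 ratio to Ctrl also fell with gene length in the IFN2000 libraries (Spearman's rho across 13043 genes -0.35 in replicate 2 and -0.19 in replicate 3, against -0.02 to 0.15 elsewhere, genes not being independent), and with a correction for length and GC content the ATF4 and CHOP median was 0.18 and 17 genes were called. The corrected log2 fold change of Atf6, whose exons add up to 9231 bases, was -0.07 with an adjusted p of 0.314, and that of Edem1 was -0.16 and still called.

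Adding IFNγ to Oxali left most of these genes where Oxali had put them. Against Ctrl, Combo200 had 6 genes higher and 24 lower, where 35.6% and 33.1% of all genes were called, and Combo2000 had 6 and 24, where the shares were 35.7% and 33.5%. These comparisons and that of Oxali use the same 2 Ctrl libraries. Against Oxali, Combo200 had none of the 33 called (edgeR; 6 at an unadjusted p under 0.05, and 0 with DESeq2), against 1.83% of all genes. Combo2000 had 2 called, against 4.36% of all genes.

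The 2 genes were Atf3 and Ddit4. Atf3 had 25.3 and 23.9 CPM in Oxali, 26.4 and 28.4 CPM in Combo200 and 34.7 and 33.1 CPM in Combo2000. The difference between Combo2000 and Oxali was log2 fold change 0.47 ± 0.061 SE, adjusted p = 2.45e-05, and the Combo2000 libraries were the highest of the 12. Ddit4 had 57.7 and 52.9 CPM in Oxali, 53 and 48.7 in Combo200 and 45.8 and 44.0 CPM in Combo2000 (log2 fold change -0.30 ± 0.08 SE, adjusted p = 0.0362), and this call was lost in 8 of the 12 fits that each left out 1 library, with adjusted p up to 0.357 (0.0606 without IFN200 replicate 1). Ddit3 had 21.5 and 20.8 CPM in Combo2000, and its difference from Oxali (log2 fold change 0.25 ± 0.087 SE, adjusted p = 0.13) was not called. Against Ctrl the Ddit3 level was 4.48-fold higher in Combo2000 (log2 fold change 2.16 ± 0.12 SE, adjusted p = 2.37e-12) and that of Atf3 was 2.40-fold higher (log2 fold change 1.26 ± 0.069 SE, adjusted p = 2.88e-12).

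The effect of Oxali was also read within each amount of IFNγ, in libraries that share no control with the comparison of Oxali and Ctrl. Combo200 against IFN200 had 6 genes higher and 24 lower, with 36.5% and 33.5% of all genes called. Combo2000 against IFN2000 had 5 higher and 22 lower, with 38.5% and 33.8% of all genes called. In Combo2000 against IFN2000, Slc7a11 fell by 2.00 on the log2 scale, Asns by 1.64, Psat1 by 1.59, Chac1 by 1.39, Xbp1 by 1.31, Trib3 by 1.15 and Hspa5 by 0.87, and Ddit3 rose by 2.01. Leaving out any single library, IFN2000 replicate 2 included, gave 26 to 28 called genes there, and 29 or 30 in Combo200 against IFN200. Without IFN200 replicate 1 the call of Eif2ak3 was lost in the latter (log2 fold change -0.16, adjusted p = 0.0584).

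Whether IFNγ acted differently on these genes once Oxali was there was tested as the interaction (Combo minus Oxali) minus (IFNγ minus Ctrl). At 200 pg no gene of the 33 was called (edgeR; 4 at an unadjusted p under 0.05, and 0 with DESeq2), against 0.698% of all genes. At 2000 pg 1 gene was called higher and 6 lower, against 2.12% and 0.6% of all genes. The ATF4 and CHOP branch had 5 of 17 called lower and the ER chaperone branch 1 of 12.

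Asns had the firmest interaction. It rose with IFNγ in the absence of Oxali, as given above, and had 139 and 134 CPM in Oxali and 134 and 139 CPM in Combo2000. The interaction was log2 fold change -0.33 ± 0.06 SE, adjusted p = 0.00359, and it was called in all 19 alternative settings. The other 5 called lower were Atf4, Trib3, Ddit4, Mthfd2 and Herpud1, with interactions of -0.21, -0.46, -0.42, -0.29 and -0.27, and the one called higher was Atf6 at 0.32. Each of these 6 was lost in at least 1 setting, and the count of 7 became 1 without Ctrl replicate 2 or Combo2000 replicate 2, 2 without Ctrl replicate 1 or Oxali replicate 1, 3 without Oxali replicate 2, Combo2000 replicate 3 or either Combo200 library, and 4 without IFN2000 replicate 2. Without IFN2000 replicate 2 the lost calls were those of Atf4 (-0.20, adjusted p = 0.0679), Trib3 (-0.46, adjusted p = 0.0900) and Atf6 (0.24, adjusted p = 0.115). The Ddit4 value shrank to -0.27 without Ctrl replicate 2 (adjusted p = 0.160), and that of Atf6 to 0.21 with the correction for length and GC content (adjusted p = 0.0562). The Ddit4 call was also lost without IFN200 replicate 1 (-0.43, adjusted p = 0.0693). The count was 6 without either IFN200 library and 10 without IFN2000 replicate 3. Of 34 other ATF4 targets 9 had a lower and 1 a higher interaction. The higher one was Wars (0.48), a tRNA synthetase gene that IFNγ is known to induce.

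**Figure D5:**
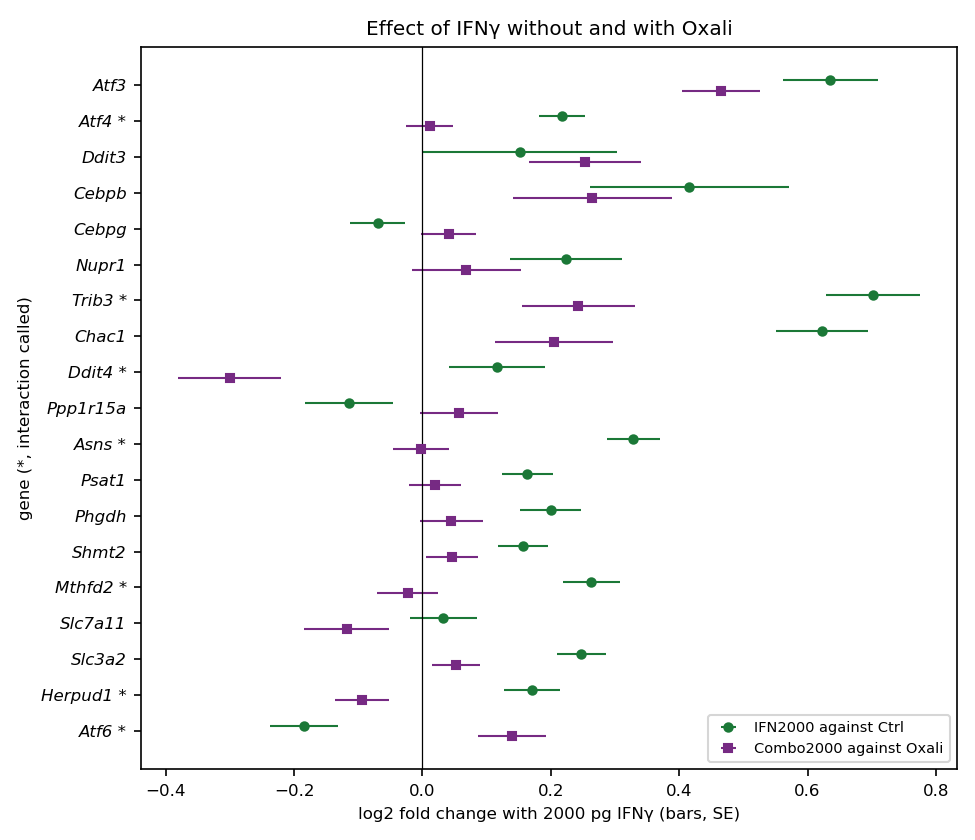
Log2 fold change with 2000 pg IFNγ (horizontal axis; bars are SE) without Oxali (IFN2000 against Ctrl, green circles) and with it (Combo2000 against Oxali, purple squares) for the 17 tested genes of the ATF4 and CHOP branch, Herpud1 and Atf6; a star marks a called interaction. For Asns, Atf4 and Mthfd2 the green circles lie at 0.33, 0.22 and 0.26 and the purple squares near 0, and for Atf3 both lie to the right of 0.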

How the data were processed

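RNA-seq was read in 12 libraries of Myc-CaP cells. The authors deposited raw counts per gene symbol. The methods describe alignment by STAR v2.7.3a to GRCm38 and counting over GENCODE genes by featureCounts. The submitters' processing notes name STAR 2.7.3a and RSEM 1.3.0, so the counting tool is given differently in these sources. The values were whole numbers and were used as counts. Counts of poly(A) mRNA follow both synthesis and decay, and genes that overlap on opposite strands may share reads, since the strand setting is not given in the sources used here.

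The 34 genes and all gene lists were chosen with earlier results of these data known. Counts were scaled by TMM. Genes passing filterByExpr (minimum count 10, minimum total 15), 13177 of 55216, were fitted with the quasi-likelihood model of edgeR 4.0.16 in R 4.3.3, with a mean per group over all 12 libraries and no covariate. Calls were made at 0.05 after Benjamini-Hochberg adjustment over all genes of a comparison. The 11 comparisons were set by the design. SE is the log2 fold change divided by the root of F. With 2 libraries a side the smallest exact permutation p is 0.333, so every call leans on a spread estimated from all genes and libraries. Partner libraries differed by a chi-square of 1.65 to 8.39 per degree of freedom, so none was a copy. All 34 genes could be named, with full values for up to 3 of the largest called rises and falls per role and for called interactions. From other lists, up to 3 of the largest called rises and falls whose mean reached 1 log2 CPM (prior count 2) were named, as were Myc and Cdkn1a as checks. Some genes are not reported here. Mars, Wars in the interaction and single marker genes were named after their values were seen. Lengths and overlaps came from a later GENCODE release on GRCm38 that held 53559 of the symbols, and promoters from RefSeq on GRCm38.p6. Alternatives were upper-quartile scaling, DESeq2 1.42.0, no filter, a mean of at least 50 counts, only the groups compared, a replicate block, a correction for length and GC content, and leaving out each library. The code was tested on simulated data.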

Additional observations from a re-analysis of the deposited data

Results flagged for a closer look

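For 7 genes the effect of 2000 pg IFNγ differed between cells with and without Oxali, by the edgeR test of the interaction, (Combo2000 minus Oxali) minus (IFN2000 minus Ctrl), on the log2 scale. Asns had -0.33 ± 0.06 (SE, adjusted p = 0.00359), Mthfd2 had -0.29 ± 0.066 (adjusted p = 0.0216) and Herpud1 had -0.27 ± 0.061 (adjusted p = 0.0216). Atf4 had -0.21 ± 0.051 (adjusted p = 0.0346), Trib3 had -0.46 ± 0.12 (adjusted p = 0.0369) and Ddit4 had -0.42 ± 0.11 (adjusted p = 0.0459). Atf6 had 0.32 ± 0.075 (adjusted p = 0.0222). Among all genes 2.12% were called higher and 0.6% lower. Asns was called in all 19 alternative settings, and the other 6 genes were each lost in at least 1. No group had enough libraries for a check of single outlying values.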

How the results depend on the processing

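The 171 calls of a gene in a comparison were set against 19 alternatives. Of 3249 values 3135 kept direction and side of the threshold, 114 kept the direction but missed the threshold, and 0 changed sign. Of the 418 medians of the branches, 371 moved by less than the spread between libraries, and of 209 counts of called genes 185 stayed within 1.5 times. The cause of the other values was not tested. With upper-quartile scaling the median log2 fold change of the ATF4 and CHOP branch was -0.57 in Oxali against Ctrl and -0.57 in Combo2000 against Ctrl, and that of the ER chaperone branch was -0.53 in Oxali, -0.56 in Combo200 and -0.56 in Combo2000 against Ctrl and -0.59 in Combo200 against IFN200. With no filter, under which Vldlr also enters, the ATF4 and CHOP median was -0.53 in Oxali and -0.53 in Combo2000 against Ctrl, and 1 gene was called in Combo200 against Oxali and 1 in the interaction at 200 pg. With the correction for length and GC content the ATF4 and CHOP median was -0.66 in Oxali, 0.18 in IFN2000, -0.62 in Combo200 and -0.70 in Combo2000 against Ctrl, -0.61 in Combo200 against IFN200 and -0.88 in Combo2000 against IFN2000. With the same correction the ER chaperone median was -0.62 in Combo200 and -0.64 in Combo2000 against Ctrl, -0.65 in Combo200 against IFN200 and -0.0058 in the interaction at 2000 pg, and 1 gene was called in Combo200 and 5 in Combo2000 against Oxali. With only the groups compared, 4 genes were called in the interaction at 2000 pg. Leaving aside the fits that each left out a library, no alternative moved the median of all genes by more than 0.0622.

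When each library was left out, the ATF4 and CHOP median ran from 0.18 to 0.27 in IFN2000 against Ctrl, from -0.60 to -0.43 in Combo200 against Ctrl, from -0.63 to -0.55 in Combo2000 against Ctrl, from -0.53 to -0.47 in Combo200 against IFN200 and from -0.22 to -0.14 in the interaction at 2000 pg. The ER chaperone median ran from 0.020 to 0.051 in IFN2000 against Ctrl, from -0.64 to -0.57 in Combo2000 against Ctrl, from -0.025 to 0.038 in Combo200 against Oxali, from -0.030 to 0.046 in Combo2000 against Oxali, from -0.65 to -0.61 in Combo200 against IFN200, from -0.63 to -0.56 in Combo2000 against IFN2000 and from -0.031 to 0.070 in the interaction at 2000 pg. The genes called numbered 0 to 1 in Combo200 against Oxali (1 without Oxali replicate 1), 1 to 2 in Combo2000 against Oxali, 0 to 1 in the interaction at 200 pg (1 without Oxali replicate 1) and 1 to 10 in the interaction at 2000 pg. A library left alone in its group was assumed to vary like the others.

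With a replicate block, the numbers in the titles used as a term, the ATF4 and CHOP median was -0.47 in Combo200 against Ctrl, and 1 gene was called in Combo2000 against Oxali. Over all genes the block took the calls from 2221 to 1071 in IFN2000 against Ctrl, from 241 to 142 in Combo200 against Oxali, from 574 to 331 in Combo2000 against Oxali and from 92 to 48 in the interaction at 200 pg. Deviations of libraries with the same number correlated with r from -0.38 to 0.13 across 9124 genes for 6 pairs of groups, so the numbers were not taken as pairing the samples. Without the filter the count over all genes was 102 for IFN200 against Ctrl (15 with it), 372 for Combo200 against Oxali (241), 262 for the interaction at 200 pg (92) and 785 for that at 2000 pg (359). With only the groups compared it was 48 for IFN200 against Ctrl and 172 for the interaction at 200 pg. With the length and GC correction it was 30 for IFN200 against Ctrl and 577 for the interaction at 2000 pg. DESeq2 gave 373 in Combo2000 against Oxali and 217 in the interaction at 2000 pg.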

Other observations

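In Combo2000 against Ctrl, the genes outside the 34 moved as follows, where 35.7% of all genes were called higher and 33.5% lower. Of 34 other ATF4 targets 2 were higher and 27 lower, with Cth (-1.80), Pycr1 of proline synthesis (-1.59) and Mthfd1l (-1.46) lowest in log2 fold change and Jdp2 (0.75) and Wars (0.36) higher. Of 45 other XBP1 and ATF6 targets 8 were higher and 28 lower, with Creb3, a membrane-bound transcription factor (0.79), Os9 (0.65) and Wfs1 (0.64) highest and Txndc11 (-1.25), Fkbp11 (-1.23) and Ssr2 (-1.12) lowest. Among the 6 genes of eIF2 kinases and phosphatases, Eif2ak2 (PKR), the kinase that senses double-stranded RNA, was higher by 0.46, and 5 were lower. Of 15 cytosolic heat shock genes 5 were higher and 9 lower, and of 11 mitochondrial ones 1 was higher (Trap1, 0.13) and 9 lower. The share of heat shock genes called higher was near that of all genes. With 2000 pg IFNγ alone, 6 heat shock genes were higher and 1 lower, and 3 mitochondrial ones were higher, against 8.39% of all genes higher and 8.47% lower.

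Among the genes read as checks, Myc was higher in Oxali than in Ctrl (log2 fold change 0.19 ± 0.044 SE, edgeR adjusted p = 0.000771). Of 10 p53 targets 5 were higher and 3 lower with Oxali, against 34.8% and 32.8% of all genes, so the share lower was near that of all genes, with Cdkn1a at 1.02 and Bax at -0.88, and of 10 IFNγ response genes 8 were higher and 1 lower.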
